A study of Arabidopsis thaliana with 21 samples.

Results

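The lipid transfer protein genes LTP1, LTP2, LTP3 and LTP4 of Arabidopsis thaliana were followed through the crosslink sites of the RNA-binding protein AtGRP7. The 4 genes were taken by their locus names, out of 4968 genes with a listed position in any of 21 iCLIP libraries. Together they held 275 of the 145822 distinct positions, of which 181 lay in LTP1, 1 in LTP2, 37 in LTP3 and 56 in LTP4. In iCLIP (individual-nucleotide resolution crosslinking and immunoprecipitation) UV light joins the protein to RNA, and reverse transcription stops next to the joined base. The tested plants carried AtGRP7::AtGRP7-GFP, the tagged protein under its own promoter, in the grp7-1 mutant. One control line carried AtGRP7::AtGRP7 R49Q-GFP, a version with an amino acid exchange that impairs RNA binding, also in grp7-1, and the other carried AtGRP7::GFP, the tag without the protein, in Col-0 with its endogenous AtGRP7. All plants were labelled 18 days old and had spent 16 days at 20 °C with 12 h of light per day, followed by continuous light for 36 h (LL36, subjective dusk) or 24 h (LL24). Aerial tissue was used after irradiation at 254 nm with 500 mJ/cm2, and GFP was pulled down. At LL36 there were 5 AtGRP7-GFP, 2 R49Q-GFP and 5 GFP-only libraries, and at LL24 there were 3 of each. The methods call the libraries of a group biological replicates.

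Nonspecific lipid transfer proteins are small, secreted, cysteine-rich proteins that hold a lipid in an internal cavity. In plants they are abundant in the epidermis and are linked to the build-up of the cuticle, the waxy layer of aerial surfaces, and to defence. LTP1 to LTP4 are classical type 1 members of this family. AtGRP7 is a glycine-rich protein with an RNA recognition motif, is controlled by the circadian clock and acts on splicing and on the levels of mRNAs.

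Each deposited value was the number of crosslinks (unique reads starting next to a base) at a position that had passed the authors' false discovery rate of 0.05 in that library. A base without an entry had no significant site, which is not the same as no crosslink. AtGRP7-GFP libraries held 109583 to 401493 listed crosslinks at LL36 and 27252 to 98067 at LL24, so that depth and time point cannot be told apart. Control libraries held 33 to 7786. In bulk tissue a lower number of crosslinks, fewer RNA molecules and fewer cells that express a gene cannot be told apart.

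The 4 genes lie in 2 neighbouring pairs. LTP1 (AT2G38540, RefSeq symbol LP1) occupies chromosome 2, 16130290 to 16131240, on the plus strand, and LTP2 (AT2G38530) occupies 16128176 to 16129399 on the same strand, 890 nt upstream. LTP3 (AT5G59320) occupies chromosome 5, 23928954 to 23929816, on the plus strand, and LTP4 (AT5G59310) occupies 23924990 to 23925957 on the minus strand, 2996 nt away (TAIR10.1 coordinates). Each has 1 intron and overlaps no other gene. The mRNA of LTP1 has a 5′ UTR of 128 nt, a coding sequence of 357 nt and a 3′ UTR of 347 nt. All 917 entries of the 4 genes lay on the strand of the gene inside its model, and 0 lay in an intron. The coding sequences of LTP1 and LTP2 were 82.4% identical over the aligned bases, those of LTP3 and LTP4 86.7%, and those of LTP1 and LTP4 65.5%. Of 813 stretches of 20 bases in the LTP1 mRNA, 40 also occurred in LTP2, and of 803 stretches of 30 bases 11 did. The authors kept only reads that mapped to 1 place, and no listed position of a member was followed by 30 bases shared with another member. By stretches of 20 bases, 11 LTP1 positions with 79 crosslinks and 4 LTP4 positions with 21 crosslinks were followed by shared sequence, so that a read no longer than the shared stretch would not have mapped to 1 place.

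Sequences at high crosslink sites are shown 5′ to 3′ from the RefSeq genome (TAIR10.1), with T for U, because the crosslinked base and its surroundings are what iCLIP reads out. Capitals in LTP1 mark positions that were reproducible in AtGRP7-GFP plants at LL36, that is, listed in at least 4 of 5 libraries. The first pair holds the 21 bases around the reproducible LTP1 position with the highest mean count at LL36, over the libraries that listed it, in the coding exons (chr2:16130712-16130732) and in the 3′ UTR (chr2:16131023-16131043). The windows of the other maxima, in the proximal 3′ UTR (chr2:16130923-16130943) and 30 bases downstream of the highest site (chr2:16131053-16131073), were chosen after their values were seen.
LTP1 coding exon: gcatgtggagTcaAtAtTCCT
LTP1 3′ UTR, highest site: ATTGTggTGTTCTTGTTATAT
LTP1 3′ UTR, proximal: ACcGgaAgTTTCgaatccTta
LTP1 3′ UTR, downstream maximum: TgTaCTATGTTCGcaggCaac
In the window of the highest site all 21 bases were listed in some AtGRP7-GFP library, and 57.1% of its bases were U. The central base of the coding window averaged 8 crosslinks in the 4 libraries at LL36 that listed it, while base 16130732 averaged 7.4 in all 5 and base 16130734 had the highest coding sum over the 8 AtGRP7-GFP libraries, 46 crosslinks. The central base of the highest site averaged 37.6 in 5 libraries, and that of the downstream maximum averaged 36.6.

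LTP1 was the member that AtGRP7-GFP crosslinked in every library. It had 896, 1095, 401, 283 and 579 crosslinks in the AtGRP7-GFP libraries at LL36, against 0 listed in both R49Q-GFP libraries and in the 5 GFP-only libraries. At LL24 it had 234, 642 and 181 crosslinks in AtGRP7-GFP plants, 13, 70 and 8 in R49Q-GFP plants and 0 listed in the 3 GFP-only libraries. Every AtGRP7-GFP library was thus above every control library of the same time point. Of the transcripts listed in AtGRP7-GFP plants, 16.8% were listed in every library of LL36 and 21.9% in every library of LL24. LTP1 was 1 of 281 transcripts listed in all 8 (6.05% of those listed in any).

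**Figure D1:**
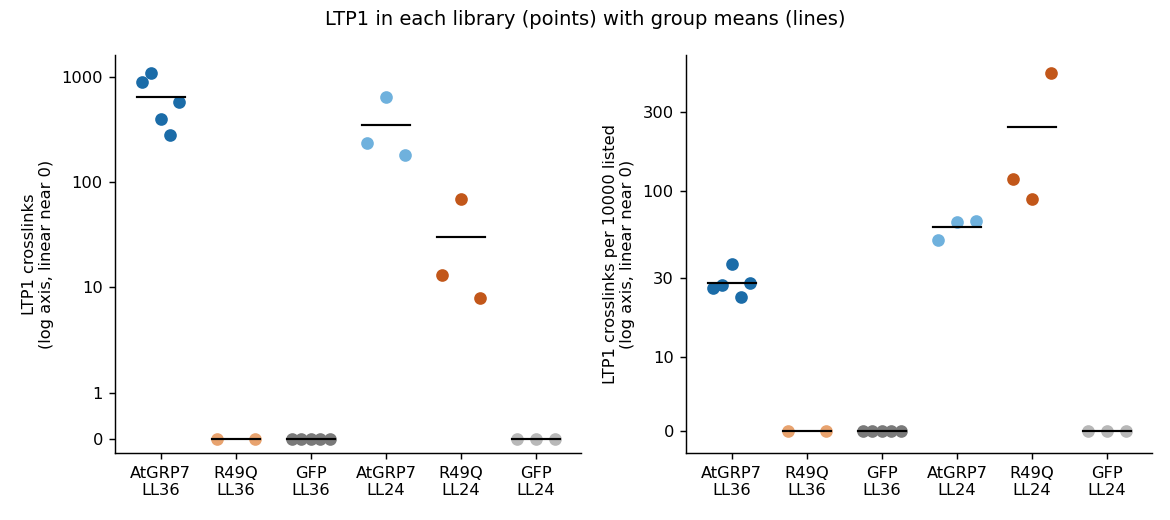
LTP1 in each of the 21 libraries (points) with the mean of each group (black lines), as crosslinks (left) and as crosslinks per 10000 listed crosslinks of the library (right). Both axes are logarithmic and linear near 0. LTP1 is listed in all 8 AtGRP7-GFP libraries and in the 3 R49Q-GFP libraries of LL24, and in no other control library.

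On the scale log2(crosslinks + 1), LTP1 averaged 9.18 ± 0.80 in AtGRP7-GFP plants and 0 in GFP-only plants at LL36 (SD, n = 5 each; exact permutation p = 0.00794, the smallest this design allows; adjusted p = 0.0273 over 2553 transcripts by the Benjamini-Hochberg method). Of these transcripts 29% were called higher in AtGRP7-GFP plants, so that this call was common. The adjusted p rested on the number of transcripts that reached the same smallest p, and without any 1 of the GFP-only libraries it was 0.0544 to 0.0547. For the R49Q-GFP plants at LL36 the same difference gave an exact permutation p of 0.0952, the smallest that 5 against 2 libraries allow (adjusted p = 0.326; in 29.2% of 2541 transcripts every AtGRP7-GFP library was above both R49Q-GFP libraries). At LL24 LTP1 averaged 8.24 ± 0.96 in AtGRP7-GFP plants and 0 in GFP-only plants (SD, n = 3 each; exact permutation p = 0.1, the smallest possible; adjusted p = 0.202), a separation that 49.4% of 619 transcripts had.

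The control libraries were shallow. At the mean share of LTP1 in AtGRP7-GFP plants, 3.32 crosslinks would stand in the deeper R49Q-GFP library of LL36 and at most 1.58 in a GFP-only library of LL36. In the GFP-only libraries of LL24 the corresponding numbers were 3.11, 5.99 and 0.482. Scaled for depth, the difference from GFP-only plants at LL36 kept its call, but a count of 0 stays 0 on any scale. The groups therefore stayed apart whatever the depth, and scaling cannot test its part. The difference was 4.86 on the log2(value + 1) scale per 10000 listed crosslinks (n = 5 each, exact permutation test, adjusted p = 0.0293) and 8.73 when scaled to uniquely mapped reads (adjusted p = 0.0286). The part of depth in the missing listings was not tested.

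R49Q-GFP plants at LL24 gave the reverse order per 10000 listed crosslinks. This scale does not remove depth, since the crosslinks of a shallow library are shared among fewer listed transcripts. At LL24 the AtGRP7-GFP libraries listed 678, 1142 and 507 transcripts and the R49Q-GFP libraries 146, 444 and 25. The part of these numbers in the order was not tested. Per 10000 listed crosslinks, LTP1 had 51.0, 65.5 and 66.4 in AtGRP7-GFP plants, against 119, 89.9 and 519 in R49Q-GFP plants, and the groups did not overlap. In whole crosslinks the difference, AtGRP7-GFP minus R49Q-GFP, was 3.86 on the log2(crosslinks + 1) scale, and per 10000 it was −1.53 on the log2(value + 1) scale (exact permutation p = 0.1 for both, the smallest that 3 against 3 libraries allow; adjusted p = 0.227 and 0.328). In whole crosslinks every AtGRP7-GFP library lay above every R49Q-GFP library in 44.1% of 656 transcripts. Per 10000 this held for 29.7%, and the reverse, as in LTP1, for 5 transcripts (0.762%). The reverse can occur only in a transcript that all 3 R49Q-GFP libraries listed. There were 8 of these, so that 5 of 8 showed it, and all 8 had a lower mean per 10000 in AtGRP7-GFP than in R49Q-GFP plants. They included FED A, a ferredoxin, with 93.3 in AtGRP7-GFP and 237.7 in R49Q-GFP plants, and GAPA, a subunit of chloroplast glyceraldehyde-3-phosphate dehydrogenase, with 57.0 in AtGRP7-GFP and 169.1 in R49Q-GFP plants. These 8 were picked for being listed in every R49Q-GFP library, including 1 with 154 listed crosslinks, where a single crosslink is already a large share. That choice favours a higher mean in R49Q-GFP plants, so the 8 of 8 cannot serve as a test. Within this set a lower mean in AtGRP7-GFP plants was not particular to LTP1. At LL36 the difference per 10000 was 4.86, and 27.1% of 2541 transcripts had every AtGRP7-GFP library above both R49Q-GFP libraries. The value of 519 came from a library with 154 listed crosslinks, of which 8 were in LTP1. Both deeper R49Q-GFP libraries, with 1097 and 7786 listed crosslinks, were above the AtGRP7-GFP libraries as well. The 8 transcripts listed in all 3 R49Q-GFP libraries were 1.44% of the 555 listed in any.

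The crosslinks of LTP1 fell into 4 groups of sites, joined where listed positions were at most 10 nt apart, besides 3 positions in the 5′ UTR that 1 library listed. The first lay 10 to 45 nt from the start codon (A of ATG as 1) and held 8.58% of the crosslinks of the 8 AtGRP7-GFP libraries. The second, also coding, lay 297 to 334 nt from the start codon and held 8.56%. The third lay in the 3′ UTR 23 to 55 nt after the stop codon with 15.5%, and the fourth lay 119 to 197 nt after the stop codon (chr2:16131012-16131090) with 67.2%. No site was listed in the last part of the 3′ UTR, beyond 197 nt after the stop codon.

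**Figure D2:**
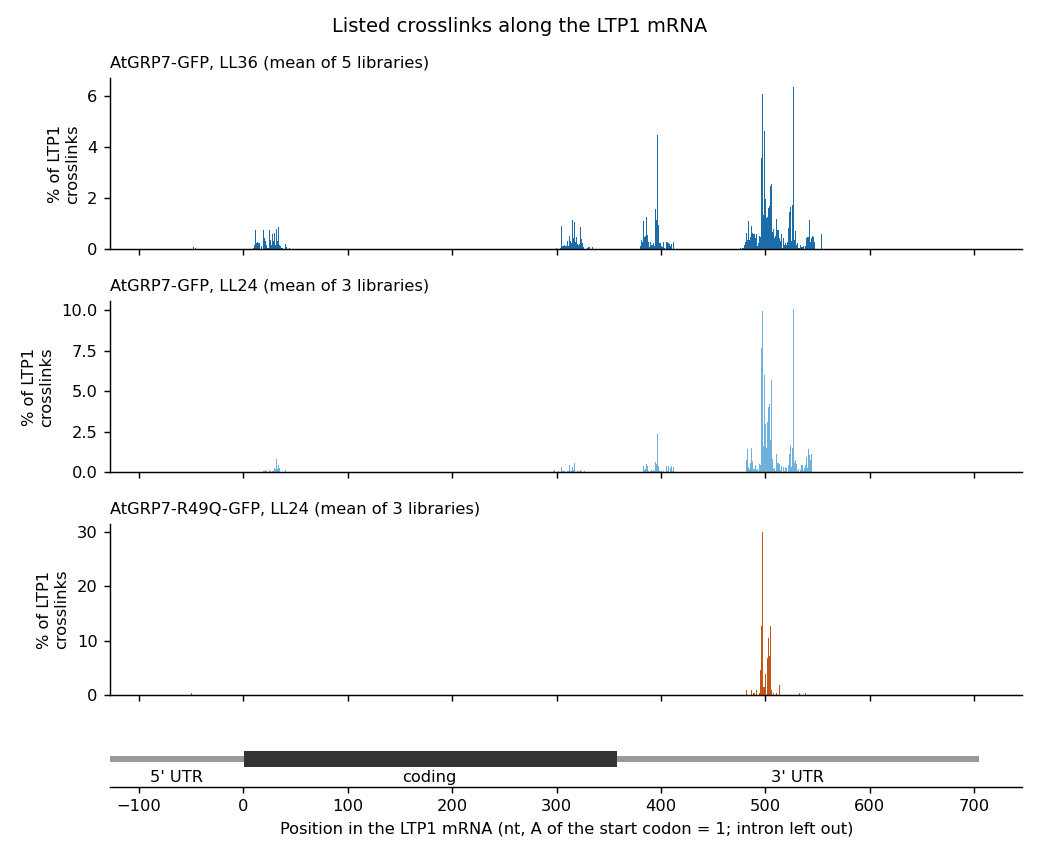
Share of the LTP1 crosslinks of a library at each base of the mRNA, averaged over the libraries of a group, against the position in nt (A of the start codon as 1), for AtGRP7-GFP at LL36 and LL24 and for R49Q-GFP at LL24. The bar below marks UTRs (grey) and coding sequence (black), and the y axes differ. All 3 groups have their main signal between 119 and 197 nt after the stop codon, and in R49Q-GFP plants it is narrower. The R49Q-GFP panel rests on 13, 70 and 8 crosslinks at 5, 21 and 6 listed positions. The part of depth in its width was not tested.

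The distal 3′ UTR group was the one that every library with LTP1 held. It took 61.8%, 60.9%, 63.8%, 50.5% and 82.7% of the LTP1 crosslinks in AtGRP7-GFP plants at LL36 and 100%, 60.7% and 96.1% at LL24. In R49Q-GFP plants at LL24 it took 100%, 98.6% and 100%. The proximal 3′ UTR group took 15.5%, 18.4%, 19.7% and 30.7% in replicates 1 to 4 of LL36 and 25.2% in replicate 2 of LL24, and it was not listed in replicate 5 of LL36 or in replicates 1 and 3 of LL24. The start codon group was listed in all 5 libraries of LL36 with 7.77% to 11.5%, and in 2 of 3 libraries of LL24 with 5.30% and 3.87%. The late coding group was listed in all 5 libraries of LL36 with 4.99% to 12.5% and in replicate 2 of LL24 with 8.72%. Outside the distal group the R49Q-GFP libraries listed 1 position, in the 5′ UTR, with 1 crosslink. Replicate 2 was the deepest library of LL24, and it alone of the 3 listed all 4 groups.

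**Figure D3:**
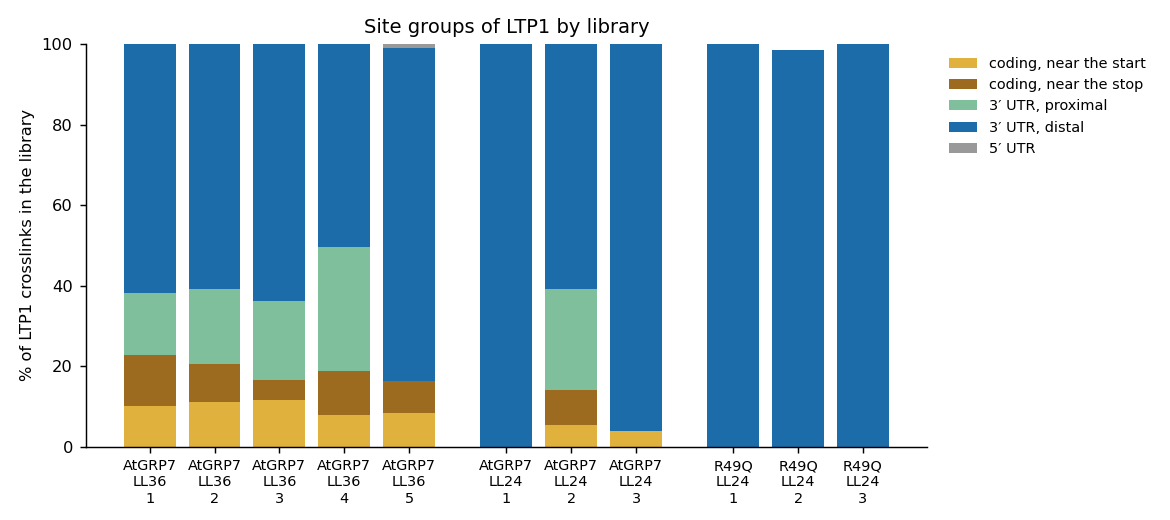
Percent of the LTP1 crosslinks of each library (y axis) in each group of sites (colours), for the 5 and 3 AtGRP7-GFP libraries of LL36 and LL24 and the 3 R49Q-GFP libraries of LL24. The distal 3′ UTR group takes 50.5% to 100% in AtGRP7-GFP plants and 98.6% to 100% in R49Q-GFP plants.

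At LL36, 89 positions of LTP1 were reproducible, 28 of them coding and 61 in the 3′ UTR, and 43 were listed in all 5 libraries. LTP1 was 1 of 827 transcripts with a reproducible position at LL36 (18.6% of 4435 listed), and it ranked 63 by their number, against a median of 7 and a highest value of 300. At LL24, where a position had to be listed in 2 of 3 libraries, it had 44, of which 3 were coding and 41 in the 3′ UTR (33.2% of 1418 transcripts had any). Of the 89 and 44 positions 38 were shared, which was 42.7% of those of LL36 and 86.4% of those of LL24. In R49Q-GFP plants 7 positions were reproducible at LL24 (5.41% of 555 transcripts had any), from 16131031 to 16131041. LTP1 had 0 in the other control groups, where 2.04% (R49Q-GFP, LL36), 1.72% (GFP-only, LL36) and 5.56% (GFP-only, LL24) of the listed transcripts had any. All 7 were also reproducible in AtGRP7-GFP plants at both time points. In the study, transcripts with a reproducible position in a control were taken out of the targets. Applied to these lists, that left LTP1 in at LL36 and took it out at LL24, as 1 of 32 of the 471 transcripts.

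Within the distal group AtGRP7-GFP and R49Q-GFP plants shared the highest site by mean count, while the share of crosslinks downstream of it did not overlap. Base 16131033, 140 nt after the stop codon and at the centre of the highest window shown above, had 41, 58, 19, 20 and 50 crosslinks in AtGRP7-GFP plants at LL36 and 25, 49 and 21 at LL24. In R49Q-GFP plants at LL24 it had 6, 13 and 2. No other LTP1 position had more in any of these R49Q-GFP libraries, though base 16131041 also had 2 in replicate 3. Base 16131063, 30 nt further on and at the centre of the downstream window, had 43, 46, 27, 25 and 42 crosslinks in AtGRP7-GFP plants at LL36 and 31, 45 and 18 at LL24, and it was listed in none of the R49Q-GFP libraries. It was above base 16131033 in replicates 1, 3 and 4 of LL36 and replicate 1 of LL24, and below it in the other AtGRP7-GFP libraries. From 25 nt after the highest site to the end of the group lay 31.2%, 25.6% and 27.0% of the distal crosslinks in AtGRP7-GFP plants at LL24, against 0%, 2.90% and 0% in R49Q-GFP plants at LL24. The means were 27.9% ± 2.89 in AtGRP7-GFP plants and 0.966% ± 1.67 in R49Q-GFP plants (SD, n = 3 each; exact permutation p = 0.1, the smallest possible). This split of the group was chosen after the values were seen, and the R49Q-GFP percentages rest on 13, 69 and 8 crosslinks. The part of depth in this share was not tested. In AtGRP7-GFP plants the same share was 23.5% to 41.8% at LL36, which overlapped LL24 (exact permutation p = 0.679).

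The 3′ UTR held a larger part of the LTP1 crosslinks than of its length. It makes up 41.7% of the mRNA and took 77.3%, 79.4%, 83.5%, 81.3% and 82.7% of the crosslinks in AtGRP7-GFP plants at LL36 and 100%, 86.0% and 96.1% at LL24. In R49Q-GFP plants at LL24 it took 100%, 98.6% and 100%, out of 13, 70 and 8 crosslinks. The larger part was thus not particular to AtGRP7-GFP plants. In AtGRP7-GFP plants the mean log2 ratio of the 2 shares was 1.04 ± 0.13 (SD, n = 8; higher in 8 of 8 libraries; exact sign-flip permutation p = 0.00781, the smallest possible). At LL36 alone it was 0.95 ± 0.05 (n = 5, exact p = 0.0625) and at LL24 alone 1.17 ± 0.11 (n = 3, exact p = 0.25), each the smallest p its number of libraries allows. When positions within 10 nt were merged into 1 site, so that height did not count, the mean ratio was 0.26 (exact p = 0.18). The other members were listed in fewer than 6 of 8 libraries and were not tested.

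Between the time points LTP1 took a smaller part of the listed crosslinks at LL36 than at LL24. Per 10000 listed crosslinks it had 26.4, 27.3, 36.6, 23.2 and 27.9 in AtGRP7-GFP plants at LL36, against 51.0, 65.5 and 66.4 at LL24, and the groups did not overlap, which held in this direction for 5.52% of 1286 transcripts. The fitted log2 change, LL36 over LL24, was −1.06 ± 0.19 (SE; edgeR quasi-likelihood test, adjusted p = 0.00356), and 3.73% of the 1286 transcripts were called lower and 13.5% higher. The median log2 change of all transcripts tested was 1.41, and 0.29 where positions were restricted to those listed at both time points. At the closest depths, replicate 3 of LL36 with 109583 and replicate 2 of LL24 with 98067 listed crosslinks, LTP1 had 36.6 and 65.5 per 10000, a ratio of 0.559. Over these shared positions the change of LTP1 was −0.53 and was not called (edgeR, adjusted p = 0.156), and an exact permutation test per 10000 gave −1.09 with the smallest possible p of 0.0357 (adjusted p = 0.131). The distal 3′ UTR group alone had 11.7 to 23.4 crosslinks per 10000 at LL36 against 39.8 to 63.8 at LL24, without overlap. The start codon group had 1.80 to 4.20 per 10000 at LL36 against 0, 3.47 and 2.57 at LL24, with overlap. The late coding group (1.83 to 3.29 against 0 to 5.71) and the proximal 3′ UTR group (0 to 7.21 against 0 to 16.5) also overlapped. The comparisons at the closest depths and by site group were added after the values were seen. How often site groups of other transcripts lack overlap was not computed.

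Among the 280 other genes listed in all 8 AtGRP7-GFP libraries, 3 followed LTP1 most closely in log2(crosslinks per 10000 + 1). They were AT4G23670 (Pearson's r = 0.966 over 8 libraries), GAPB (AT1G42970, r = 0.964), a partner subunit of GAPA, and CRB (AT1G09340, r = 0.954), an RNA-binding protein of the chloroplast. The libraries share a depth difference between the time points, 20 genes had r of at least 0.9, and the median was 0.103.

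LTP4 came next among the members at LL36. It had 71, 86 and 3 crosslinks in replicates 1 to 3 of AtGRP7-GFP plants at LL36, 8 and 2 in replicates 2 and 3 of LL24, and it was not listed in replicates 4 and 5 of LL36, in replicate 1 of LL24 or in any control. Replicate 3 held 109583 listed crosslinks in all, and replicates 4 and 5 held 122005 and 207665. LTP3 had 13, 43 and 8 crosslinks in replicates 1 to 3 of LL36 and 14 in replicate 3 of LL24, and it was listed nowhere else. LTP2 had 2 crosslinks, both at base 16129089 in replicate 2 of LL36, the deepest library. Neither LTP2, LTP3 nor LTP4 had a reproducible position at either time point.

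Per 10000 listed crosslinks and per kb of mRNA, LTP1 had 34.0 ± 6.01 at LL36, LTP4 1.09 ± 1.34, LTP3 0.568 ± 0.607 and LTP2 0.00895 ± 0.0200 (SD, n = 5). The ranges of LTP1 (27.9 to 44.0) and LTP4 (0 to 2.58) did not overlap, while those of LTP4, LTP3 and LTP2 overlapped. At LL24 the values were 73.3 ± 10.4 for LTP1, 2.23 ± 3.86 for LTP3 and 0.622 ± 0.541 for LTP4 (n = 3), and LTP2 was not listed. RNA levels of these genes were not analysed here, so their part in this order was not tested. Against GFP-only plants at LL36 the differences on the log2(crosslinks + 1) scale were 2.92 for LTP4 and 2.49 for LTP3 (exact permutation p = 0.167 and adjusted p = 0.246 for each). LTP2 had too few listings for a test. In the time comparison LTP3 had a log2 change of −1.74 ± 1.86 (SE; edgeR, adjusted p = 0.532), and LTP2 and LTP4 were below the filter on counts.

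Most of the few sites of LTP3 and LTP4 lay at positions like those of LTP1. Their coding sites were 22 to 51 nt from the start codon in LTP3 and 6 to 38 nt in LTP4, against 10 to 45 nt in LTP1. In the 3′ UTR the sites were 31 to 36 and 134 to 157 nt after the stop codon in LTP3 and 27 to 42 and 118 to 143 nt in LTP4, against 23 to 55 and 119 to 197 nt in LTP1. The LTP2 position lay 141 nt after the stop codon. Of 17 listed coding positions of LTP3, 16 aligned with an LTP1 base and 16 fell inside site groups of LTP1, with 36 of 41 crosslinks. Of 23 coding positions of LTP4, 20 aligned and 18 fell inside, with 48 of 72 crosslinks. The site groups covered 21.9% of the aligned coding bases in each case. The highest coding position of LTP4, base 23925765 at nt 8 with 15 crosslinks, had no aligned base in LTP1 and lay before the first LTP1 group. In the 3′ UTR 18 of 20 listed positions of LTP3 fell inside (35 of 37 crosslinks), and the 2 proximal ones did not. Of 33 listed positions of LTP4 in the 3′ UTR, 28 aligned and 27 fell inside (87 of 98 crosslinks). Here 26.3% and 28.2% of the aligned bases were covered. Positions of 1 gene lie next to each other and are not independent, so these counts were not tested. The late coding group of LTP1 had no counterpart in the lists of LTP2, LTP3 or LTP4.

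**Figure D4:**
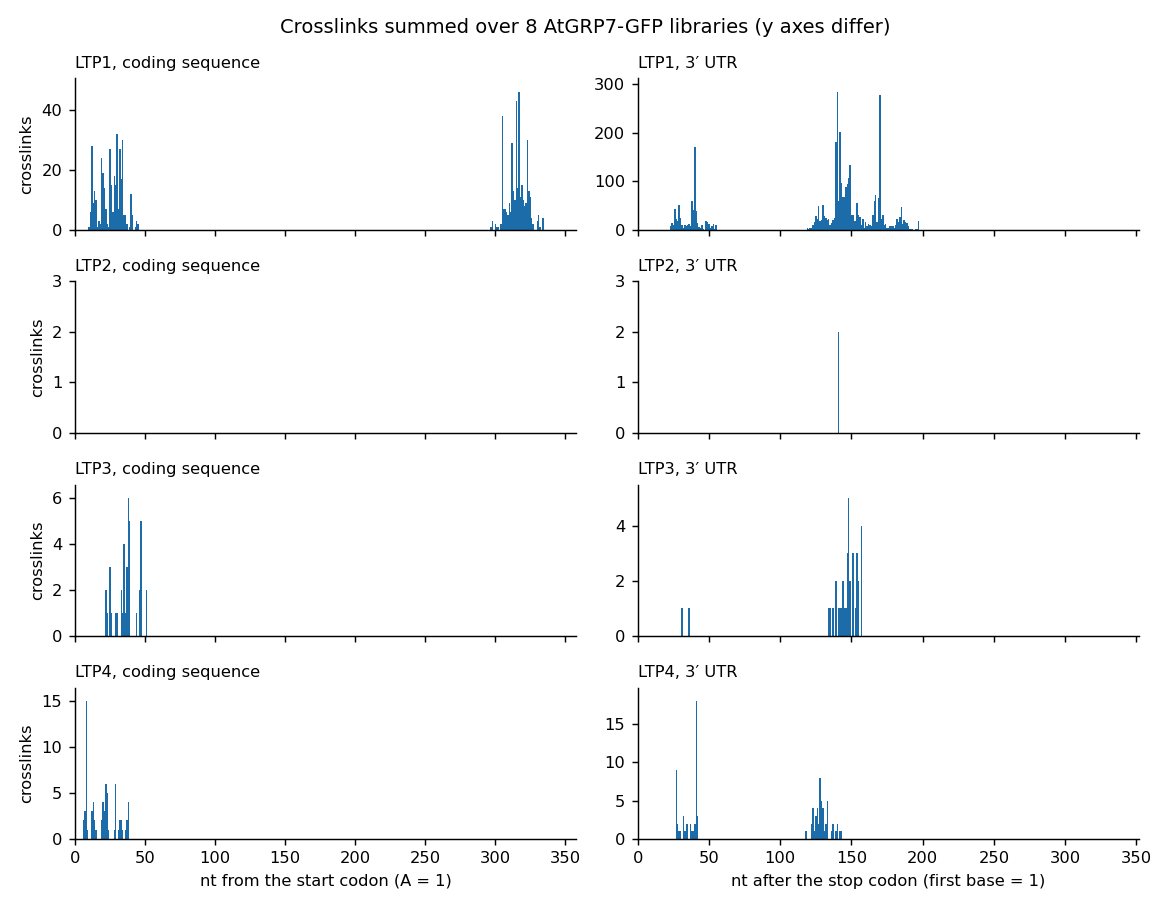
Crosslinks summed over the 8 AtGRP7-GFP libraries at each base of LTP1 to LTP4 (rows, y axes differ), against the distance in nt from the start codon within the coding sequence (left) and after the stop codon (right). LTP3 and LTP4 have sites within 51 nt of the start codon and at 27 to 42 and 118 to 157 nt after the stop codon, inside or next to the site groups of LTP1, and LTP2 has 1 position 141 nt after the stop codon.

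The stretch of 30 bases from nt 20 to nt 49 of the coding sequence is shown for all 4 members, because it held sites in 3 of them. It was chosen after the values were seen. Capitals mark reproducible positions at LL36 in LTP1 and positions listed in any AtGRP7-GFP library in the others.
LTP1 (chr2:16130437-16130466, plus strand): TGGcaTGcTTGcTCTtggcctgcatgattg
LTP2 (chr2:16128500-16128529, plus strand): tggcatgcatggtcttggcttgcatgattg
LTP3 (chr5:23929070-23929099, plus strand): tcTTcACatGCctTGTTTTAacggTgTGca
LTP4 (chr5:23925724-23925753, minus strand): TCTTCacaTGcTTTGtTTTgacagtgttca
The AtGRP7-GFP libraries held 273 crosslinks in this stretch of LTP1, 39 in that of LTP3, 39 in that of LTP4 and 0 in that of LTP2. Between 53.3% and 66.7% of its bases were U or C in the 4 genes. LTP2 had 53.3% and no listed position, and LTP1 had 60.0%.

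In the proximal 3′ UTR the highest sites of LTP1 and LTP4 fell on the same base of the alignment. The windows of 21 bases around these sites follow, chosen after the values were seen, with the site as the central base and capitals as before.
LTP1 (chr2:16130923-16130943, plus strand): ACcGgaAgTTTCgaatccTta
LTP4 (chr5:23925245-23925265, minus strand): gAGTAtGGTTTCgtatacgta
Base 16130933 of LTP1 had 171 crosslinks and base 23925255 of LTP4 had 18, both summed over the 8 AtGRP7-GFP libraries. The distal maxima of LTP3 and LTP4, with 5 and 8 crosslinks, were 24 and 10 nt from base 16131033 of LTP1 in the alignment. The single LTP2 position aligned 15 nt from that base. The LTP3 maximum aligned with base 16131057, closer to the nearly tied LTP1 maximum at base 16131063.

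The bases at the reproducible positions of LTP1 were more often U than the regions around them. At LL36, 33 of 61 positions in the 3′ UTR were U (54.1%), against 39.8% of the whole 3′ UTR, and 12 of 28 coding positions were U (42.9%), against 22.7% of the coding sequence. UV light is known to crosslink uridine more readily than other bases, and its part in these shares was not tested. Within 10 nt of the sites, 57.9% of the bases in the 3′ UTR were U or C, against 52.4% of the whole region, and 53.1% in coding exons, against 49.9%. In a window of 20 nt the coding difference turned round, to −0.47 percentage points. Of the 7 reproducible R49Q-GFP positions 5 were U (71.4%). Positions of LTP3 and LTP4 listed in any library of LL36 were U in 46.2% of 13 coding positions of LTP3, against 26.7% of the region, and in 76.2% of 21 of LTP4, against 24.5%. In the 3′ UTR they were U in 45.0% of 20 positions of LTP3, against 39.2% of the region, and in 54.5% of 33 of LTP4, against 38.2%.

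Other genes of the pathway were taken from 3 lists. Of 8 other type 1 lipid transfer protein genes, 3 were listed in AtGRP7-GFP plants at LL36 and 1 had reproducible positions, which was LTP5 with 65 at LL36 and 34 at LL24. Its crosslinks per 10000 were 18.3 ± 1.41 at LL36 (n = 5) and 19.3 ± 5.86 at LL24 (n = 3), and it was listed in no control library. Of 7 genes for GPI-anchored lipid transfer proteins and other proteins of the same cysteine motif, 3 had reproducible positions at LL36. These were LTPG1, which carries wax components to the cuticle, with 13, LTPG2 with 3 and EARLI1 with 1. At LL24 LTPG2 had 3 and the others 0. Of 24 genes for wax and cutin synthesis and export, 16 were listed at LL36 and 4 had reproducible positions. KCS6 and KCS10, ketoacyl-CoA synthases that elongate fatty acids, had 42 and 16 at LL36 and 28 and 10 at LL24, and KCR1 and HTH had 1 each at LL36. No gene of the 3 lists had a reproducible position in a control, but 4 wax and cutin genes were listed in a control library, among them KCS6 in 2 of 3 R49Q-GFP libraries of LL24. By list, 1 of 3, 3 of 4 and 4 of 16 listed genes thus had a reproducible position at LL36, beside 18.6% of all listed transcripts.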

How the data were processed

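The authors deposited, for each of 21 iCLIP libraries, the counts of crosslinks at significant positions only. Per the methods and the labels, reads were trimmed (cutadapt 1.9.1), freed of PCR duplicates by random barcodes and mapped to TAIR10 (STAR 2.5.2a), and only uniquely mapped reads were kept. Crosslinks around each position were compared with random placements in the same transcript region, which makes each list depend on depth and on the other crosslinks of the region. Counts were not scaled. The members and gene lists were chosen with earlier results of these data known.

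Counts were summed per gene, each position once. Groups were compared for every transcript listed in at least 2 libraries by two-sided exact permutation tests on log2(crosslinks + 1), the smaller tail doubled, with Benjamini-Hochberg adjustment over all transcripts. In data simulated for 5 against 5 libraries with 2532 genes and 32-fold changes, these tests called 95.5% of 1000 changed genes and 0 of 200, since fewer genes then share the smallest p. LL36 and LL24 were compared with edgeR 4.0.16 (TMM, quasi-likelihood test, at least 10 crosslinks in 3 libraries). In simulated data (1074 genes, 4-fold changes) it called 68.6% of the changed genes. DESeq2 1.42.0 was an alternative. Regions and sequences came from the RefSeq annotation of TAIR10.1, whose nuclear coordinates matched the files. Genes named besides the members were all list genes with a reproducible position and the 3 most correlated genes, and the sequences at the highest reproducible position per region. Calculations used Python 3.11.15 and R 4.3.3. Counts of crosslinks cover counting error only. Scaling by mapped reads used the study's read statistics of LL36.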

Additional observations from a re-analysis of the deposited data

Results flagged for a closer look

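The contrast of AtGRP7-GFP with R49Q-GFP plants ran in opposite directions at the 2 time points when LTP1 was given per 10000 listed crosslinks. It was 4.86 on the log2(value + 1) scale at LL36, where neither R49Q-GFP library listed LTP1, and −1.53 at LL24, where all 3 did. The difference between the time points was not tested. The R49Q-GFP libraries held 34 and 1176 listed crosslinks at LL36 and 154 to 7786 at LL24, and their part in the difference was not tested.

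Among the 5 AtGRP7-GFP libraries of LL36, single values stood apart in 4 of 19 quantities that were examined for such a gap. In each of them 4 libraries were at 0, so that any value in the fifth would have stood apart whatever its size, and the usual chance rate of about 1 in 20 does not apply. The 3 quantities of LTP2 rest on 1 library, replicate 2, with 2 crosslinks at 1 position (0.0498 per 10000 listed crosslinks), while the others listed none. The part of LTP1 crosslinks in the 5′ UTR was 1.04% in replicate 5 and 0 in the others. Replicate 5 was also the 1 library of LL36 without the proximal 3′ UTR group, although it had 579 LTP1 crosslinks and 0 fell there. Replicate 4, with 283 LTP1 crosslinks, listed 87 in that group. The cause was not tested.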

How the results depend on the processing

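Depth limits most of these results, and the controls held 33 to 7786 listed crosslinks. The smallest exact p was 0.1 or 0.0952 in the comparisons with controls other than that of AtGRP7-GFP with GFP-only at LL36. For that comparison, pairing same-numbered libraries kept the difference of 9.18, but exact sign-flips over 5 pairs cannot go below p = 0.0625 (adjusted p = 0.215, replicate block). Leaving out single libraries gave differences of 8.95 to 9.43 (adjusted p 0.0402 to 0.0547), 8.95 to 9.43 against R49Q-GFP at LL36, 7.69 to 8.60 against GFP-only at LL24 and 3.26 to 4.75 against R49Q-GFP at LL24. The last difference turned to −1.53 per 10000 listed crosslinks.

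For LL36 over LL24, leaving out single libraries gave −1.20 to −0.94 for LTP1 (adjusted p at most 0.0135). The replicate block gave −0.97 (edgeR, adjusted p = 0.00515) and turned LTP3, which was not called, to 2.22. The labels of same-numbered libraries share only the number. Correlations of their deviations were −0.02, 0.08 and 0.06, against −0.11 to 0.05 for libraries with different numbers. Whether same-numbered libraries shared a batch was not tested. With the block 80 transcripts were called higher and 39 lower, against 173 and 48 without it. The call for LTP1 was lost over positions listed at both time points (−0.53, adjusted p = 0.156) and in the exact permutation test (−1.09, adjusted p = 0.131). DESeq2 called 336 higher and 62 lower, and the shared positions 25 and 13 of 596.

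The 89, 44 and 7 reproducible positions of LTP1 (AtGRP7-GFP at LL36 and LL24, R49Q-GFP at LL24) became 43, 29 and 3 when every library had to list them, 148, 68 and 13 with a tolerance of 3 nt, and 58, 26 and 3 with at least 2 crosslinks per position. Leaving out a library, with 1 of the remaining ones allowed to miss, gave 90 to 111, 57 to 114 and 7 to 22, with the highest values at LL24 without replicate 1 or 3, where 1 library of 2 was enough.

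The 3′ UTR preference was 1.00 to 1.06 without single libraries, 0.95 at LL36 alone, 1.17 at LL24 alone and 0.26 with merged positions (exact p = 0.18). The excess of U and C around coding sites changed to −0.47 percentage points with a window of 20 nt. Of the alternatives for LTP1, 82 kept the direction and side of the threshold or stayed near the value, many of them for results that were not called or had no test, 11 lost a call, 13 moved a value and 2 reversed it.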
